A study of Arabidopsis thaliana with 12 samples.

Results

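The glucose response of Arabidopsis thaliana seedlings with silenced TOR was taken from 6 of 12 expression arrays of whole seedlings, the 3 labelled tor with glucose and the 3 labelled tor without it. The tor plants carry an estradiol-inducible RNAi construct against TOR, and the wild type (WT) is Col-0. Seedlings of both genotypes were grown for 3 days in liquid medium under low light, which uses up the seed reserves, and then received 15 mM glucose for 2 h or no treatment, with 3 arrays in each of the 4 groups. The labels call the replicates biological. They do not say whether WT seedlings were given estradiol, so the inducer and the silencing cannot be told apart where tor is set against WT. The values are RMA levels per probe set on the log2 scale, so a change of 1 is a 2-fold change. The table holds 22810 probe sets, 64 of them controls that were not used, and 22745 of the rest had a value on all 6 tor arrays.

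TOR is a protein kinase that promotes growth when sugar and other nutrients are at hand, and in plants it acts against SnRK1, a kinase active in energy starvation. Sugar given to starved seedlings normally switches on ribosome building and cell division and switches off genes for the breakdown of amino acids, lipids and cell contents. No probe set named for TOR was found in the annotation used here, so its silencing was not checked. The TOR partner genes RAPTOR1 and RAPTOR2 had log2 changes with glucose in tor of -0.01 ± 0.09 and 0.05 ± 0.09 (SE), neither of which passed.

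The pair of tor arrays numbered 1 stood apart from the others. Without glucose, 7.45% of probe sets on tor array 1 lay 1 log2 unit or more from the mean of the other 2 arrays of its group, against 2% and 2.91% for arrays 2 and 3. With glucose the shares were 5.28%, 1.59% and 1.67%. In WT the highest share was 3.25%, also on array 1 without glucose. Same-numbered tor arrays with and without glucose deviated together from their group means, with correlations across probe sets of 0.863, 0.678 and 0.811 for numbers 1, 2 and 3, so the change within each pair was tested. In whole seedlings, fewer cells of a type and less RNA per cell cannot be told apart. Whether the 12 arrays were normalized as 1 set is not stated in the labels, so levels set across genotypes carry that limit, while the changes were taken within a genotype.

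Little of the glucose response was left in tor, and more of the probe sets that passed fell than rose. Of 22745 probe sets, 20 (0.0879%) passed for glucose against none in tor, 5 of them higher (0.022%) and 15 lower (0.0659%), by limma with paired arrays and an adjusted p under 0.05. In WT the same fit called 6907 of 22746 (30.4%), 3942 higher (17.3%) and 2965 lower (13%). All 20 probe sets were also called in WT in the same direction, and each had a smaller change in tor, between 21.3% and 91.3% of the WT change with a median of 44.5%. The difference between the genotypes was itself called for 12 of the 20 and was not for 8. For 5 of the 20 the 3 levels with glucose did not overlap the 3 without, which over all probe sets held for 608 (2.67%) higher and 540 (2.37%) lower. An unadjusted p under 0.05 was reached in tor by 2478 probe sets (10.9%), 1318 higher (5.79%) and 1160 lower (5.1%).

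The number of calls in tor rests on the pairing and on single pairs. Without the replicate block 0 probe sets passed, with 329 at an unadjusted p under 0.05. Leaving out pair 1 gave 489 calls, among them all 20. Leaving out pair 2 gave 2 calls, 1 of them among the 20, and leaving out pair 3 gave 16, 9 of them among the 20.

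**Figure D1:**
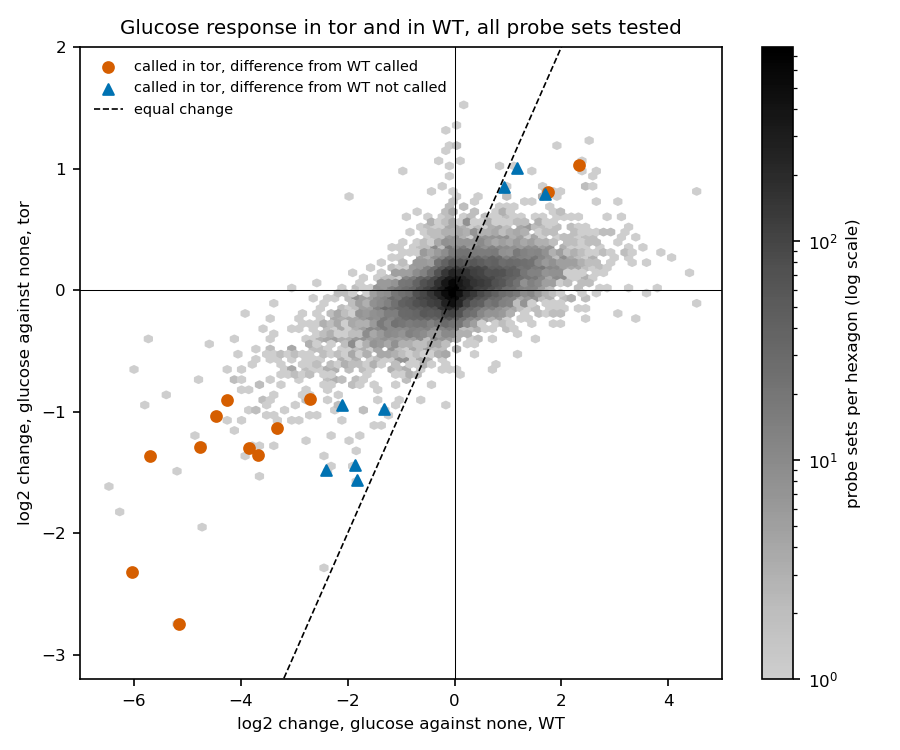
Log2 change for glucose against none in tor (y axis) against that in WT (x axis) for all probe sets tested, with grey hexagons shaded by the number of probe sets; the y axis spans a smaller range than the x axis. The 20 probe sets called in tor are circles (difference from WT called, 12) or triangles (difference not called, 8), and all lie between the horizontal axis and the dashed line of equal change.

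GAT1_2.1, a glutamine amidotransferase-like gene, had the largest change in tor among probe sets that carry 1 gene name. Its level was 8.22, 10.66 and 11.17 in the 3 tor arrays without glucose and 6.35, 7.34 and 8.13 in those with it, so the groups did not overlap. It fell in each pair, with log2 changes of -1.87, -3.33 and -3.04 and a mean of -2.75 ± 0.25 (SE, limma adjusted p = 0.0253). In WT it fell from 10.98 ± 0.68 to 5.82 ± 0.27 (SD, n = 3), and the tor change was smaller by 2.42 ± 0.47 (limma adjusted p for the difference = 0.0104). A second, dimmer probe set for GAT1_2.1 had a change of -1.18 ± 0.19 that did not pass (adjusted p = 0.0946).

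The other 3 named genes that fell in tor carry no gene symbol in the reference, and no role is given for them here. AT3G15440 stood at 6.45, 7.24 and 8.36 without glucose and at 5.34, 5.72 and 6.54 with it, a change of -1.48 ± 0.14 (adjusted p = 0.0253), or 61.6% of the WT change of -2.40 ± 0.57. Its levels with and without glucose overlapped between arrays of different number but were lower in all 3 pairs. The difference between genotypes was 0.92, with an unadjusted 95% interval from -0.65 to 2.49, and did not pass. WT replicate 1 held AT3G15440 at a low level already without glucose (3.96, against 6.88 and 6.70).

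AT3G20340 fell from 8.08, 9.31 and 9.78 to 7.10, 7.80 and 8.20 in tor, a change of -1.36 ± 0.13 (adjusted p = 0.0253) against -3.68 ± 0.27 in WT. AT1G68440 fell from 7.74, 9.08 and 8.76 to 6.99, 8.18 and 7.72, a change of -0.90 ± 0.10 (adjusted p = 0.0355) against -2.71 ± 0.12 in WT. For both genes the groups of arrays overlapped while each pair fell, and the smaller size in tor was called (adjusted p for the difference 0.00425 and 0.000922).

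Of the 3 named genes that rose, AT3G13610 (F6'H1) encodes the enzyme that opens the synthesis of the coumarin scopoletin. It rose from 8.32, 9.72 and 9.94 to 9.20, 10.49 and 10.67 in tor. The 3 pairs differed little, at 0.88, 0.78 and 0.73, a mean of 0.79 ± 0.09 (SE, limma adjusted p = 0.0366) against 1.70 ± 0.25 in WT. The difference between genotypes was -0.90 and did not pass (adjusted p = 0.0695). F6'H1 was already high in tor before glucose, at 9.33 ± 0.87 against 6.77 ± 0.55 in WT (SD, n = 3), and all 3 tor arrays without glucose were above the 3 such WT arrays.

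AT1G05280 rose in tor from 5.68, 5.10 and 4.99 to 6.51, 5.86 and 5.96, with no overlap, a change of 0.85 ± 0.09 (limma adjusted p = 0.0355). This was 91.3% of the WT change of 0.93 ± 0.17, and the difference of -0.08 (unadjusted 95% interval -0.55 to 0.39) did not pass. The probe set is dim, at a mean level of 5.68 over the tor arrays. AT5G10130 rose from 7.66, 6.39 and 6.14 to 8.52, 7.40 and 7.35, a change of 1.03 ± 0.10 (adjusted p = 0.0256) against 2.32 ± 0.11 in WT, and that difference was called (adjusted p = 0.00174).

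**Figure D2:**
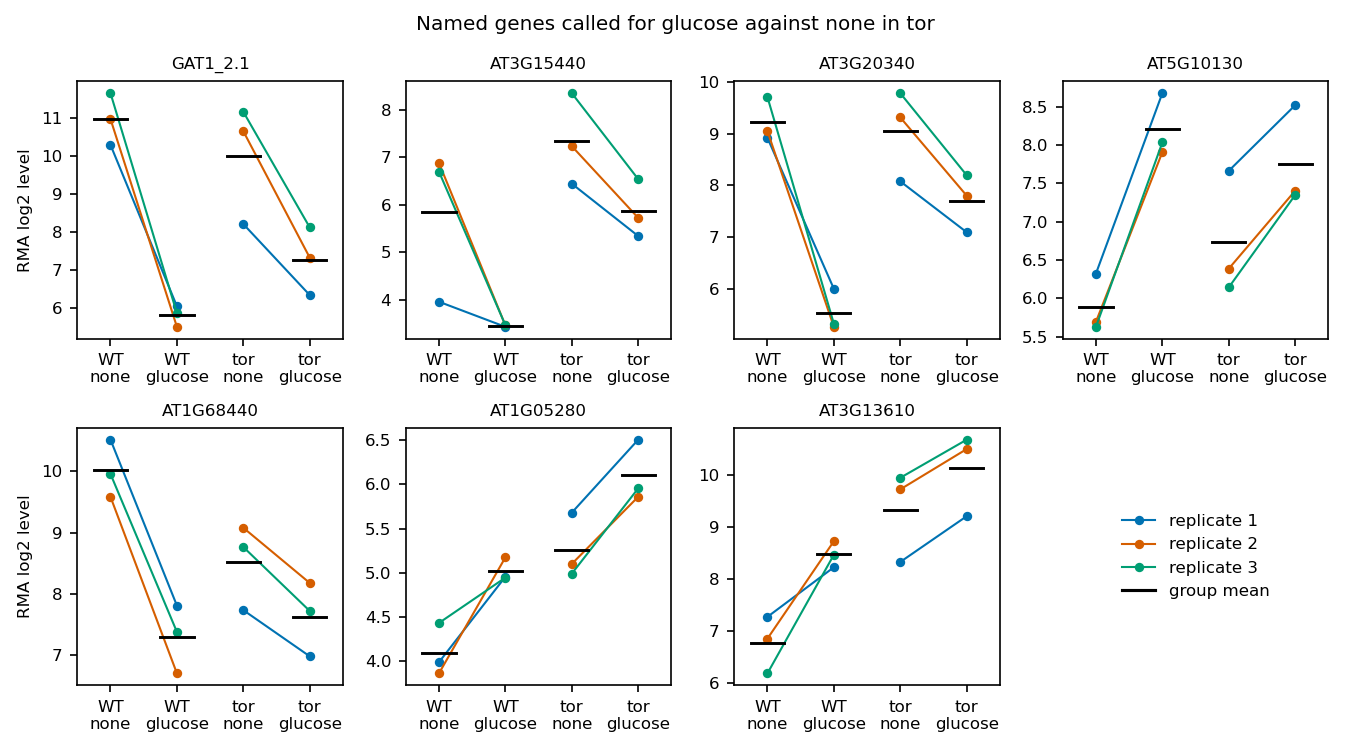
RMA log2 level (y axis, a range of its own in each panel) of the 7 named genes called in tor, on each of the 12 arrays by group, with a line joining arrays of the same replicate number and a black bar for the group mean. Every tor line runs the same way within a gene, while replicate 1 starts at another level than replicates 2 and 3, for GAT1_2.1 at 8.22 against 10.66 and 11.17.

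The other 13 called probe sets carry no gene name in the annotation used here, 11 lower and 2 higher. Probe set 254001_at had the smallest adjusted p of all (0.00553), with levels of 6.32, 8.0 and 8.30 without glucose and 4.36, 5.36 and 5.96 with it. Its change was -2.32 ± 0.13 in tor against -6.05 ± 0.35 in WT. Probe set 252367_at fell in each tor pair, with changes of -1.23, -1.67 and -1.79, 85.8% of its WT change. Both 266649_at and 259403_at rose, by a log2 change of 1.01 ± 0.10 and 0.81 ± 0.09.

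How much of the WT response tor kept was described over the 2511 probe sets that WT called with a change of at least 2-fold. In tor, 46 of them (1.83%) had at least 50% of the WT change in the WT direction, 425 (16.9%) had from 25 to 50%, 1786 (71.1%) had less than 25%, and 254 (10.1%) pointed the other way. Those that fell in WT kept more than those that rose, with 35 of 1127 (3.11%) against 11 of 1384 (0.795%) at 50% or more and medians of 16.6% and 12.2%. That gap between falls and rises was not tested.

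Grouped by the size of the WT change, the tor change grew with it on both sides, more on the falling side, except in the highest and smallest group. The 25 probe sets with a WT change under -4 had a median tor change of -0.97 ± 0.42 (SD over 3 pairs), 20.3% of the WT median, and 24 of them were lower in all 3 tor pairs (over all probe sets 14.3% were). The 20 probe sets with a WT change from 3 to 4 had a tor median of 0.32 ± 0.09, 9.66% of the WT median, and 14 were higher in all 3 pairs (17.8% of all probe sets were). The 5 above 4 had a median of 0.13 ± 0.25, and 1 of them was higher in all 3 pairs. For WT changes under -0.5 pair 1 gave the smallest medians, -0.47 against -1.30 and -1.0 in the group under -4.

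**Figure D3:**
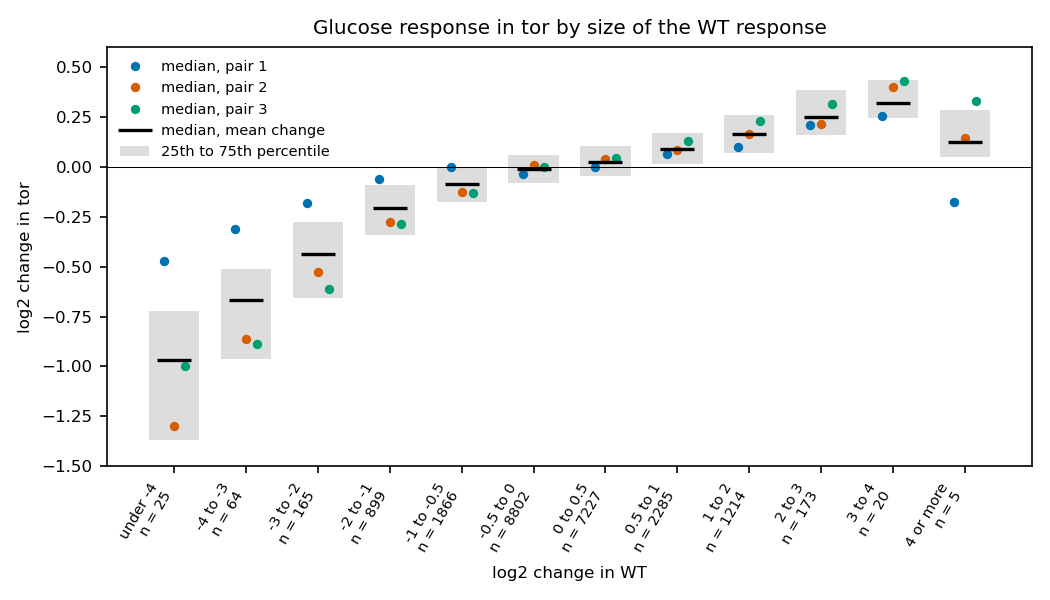
Log2 change in tor (y axis) for probe sets grouped by their log2 change in WT (x axis, n per group). Grey bars span the interquartile range over probe sets, black dashes are medians of the mean change and points are medians of each pair; the medians run from -0.97 at the left to 0.32 for WT changes of 3 to 4, and pair 1 lies nearest 0 for WT changes under -0.5.

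Sugar starvation genes, which plants express when carbon runs short, had, with branched-chain amino acid breakdown, the largest median changes in tor of the lists with at least 5 probe sets. Of 7 probe sets for 6 of 22 listed starvation genes, 1 fell (GAT1_2.1), 6 in all (85.7%) had an unadjusted p under 0.05 with a lower level, against 5.1% of all probe sets, and 6 were lower in all 3 pairs, against 14.3%. The list's median log2 change was -0.72 ± 0.44 in tor (SD over 3 pairs), against 0.01 for all probe sets in tor. In WT it was -3.26 ± 0.79, and all 7 fell (13% of all probe sets did). The 64 probe sets of any function with a WT change from -4 to -3 had a tor median of -0.67. Of these, 84.4% were lower in all 3 tor pairs, so the list lay near other probe sets with WT falls of that size. The difference between genotypes was called for 6 of the 7, against 20% of all probe sets. PPDK, pyruvate orthophosphate dikinase, stood at 9.89, 12.27 and 12.34 without glucose and at 9.64, 11.12 and 11.58 with it, a change of -0.72 ± 0.16 that did not pass (limma adjusted p = 0.149). AT4G27450 had a change of -0.74 ± 0.14 (adjusted p = 0.117).

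The level from which the starvation list started differed by pair in tor. Its median level without glucose was 9.61 in replicate 1, 10.66 in replicate 2 and 11.17 in replicate 3, and with glucose 9.51, 9.37 and 10.19. In WT it went from 10.81, 11.43 and 11.57 to 7.91, 6.78 and 6.68, so the WT arrays with glucose lay below every tor array. The list's median change by pair in tor was -0.25, -1.12 and -0.74.

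Branched-chain amino acid breakdown turns leucine, isoleucine and valine into fuel for respiration. The list for it, which also covers other amino acid use, had 5 measured members, and none passed in tor. Lower levels with an unadjusted p under 0.05 were found for 4 (80%, against 5.1% of all probe sets). The median change was -0.77 ± 0.50 against -3.38 ± 1.01 in WT, where all 5 fell (13% of all probe sets did). Probe sets of any function with a WT change from -4 to -3 had a tor median of -0.67. Of those, 84.4% were lower in all 3 tor pairs, against 80% of this list. IVD, isovaleryl-CoA dehydrogenase, stood at 8.90, 11.28 and 11.48 without glucose and at 8.66, 10.17 and 10.52 with it (-0.77 ± 0.16, limma adjusted p = 0.136). MCCA and MCCB, subunits of methylcrotonyl-CoA carboxylase, had changes of -0.86 ± 0.23 and -0.87 ± 0.20 (adjusted p = 0.215 and 0.164). ETFQO, which passes the electrons of this breakdown to the respiratory chain, had -0.55 ± 0.13 (adjusted p = 0.177). Pair 1 gave the smallest change for each, -0.13 for MCCA against -1.53 and -0.93. The difference from WT was called for these 4 genes, between 2.43 for ETFQO and 4.50 for MCCA, against 20% of all probe sets.

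None of 18 probe sets for 17 autophagy genes passed in tor. An unadjusted p under 0.05 was reached by 2 with lower levels (11.1%, against 5.1% of all probe sets) and 1 with a higher level (5.56%, against 5.79%). The median was -0.13 ± 0.18, with 0.08 in pair 1, against -0.66 ± 0.29 in WT, where 12 of the 18 fell (13% of all probe sets did). ATG8E, one of the ubiquitin-like proteins that coat the autophagosome, had levels of 8.69, 9.29 and 9.39 without glucose and of 8.33, 8.14 and 8.45 with it. Its groups did not overlap, and its change of -0.81 ± 0.15 (adjusted p = 0.111) was smaller than the -2.80 ± 0.42 of WT (adjusted p for the difference = 0.0309). ATG8B had -0.25 ± 0.09. The 2 probe sets of AT2G37840 disagreed in tor. For the first the change was 0.31 ± 0.11 against -0.54 ± 0.16 in WT, a called difference (adjusted p = 0.0226). For the other it was -0.12 ± 0.10 against -0.67 ± 0.14 in WT, where it fell, and the genotypes' difference was not called (adjusted p = 0.0641).

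Genes that move seed oil into sugar were also measured. ICL, isocitrate lyase of the glyoxylate cycle, had a change of -0.40 ± 0.09 and SDP1, the lipase that opens oil breakdown, of -0.46 ± 0.11, lower in all 3 pairs without passing (adjusted p = 0.156 and 0.168), against -1.68 and -1.92 in WT. AIM1, a beta-oxidation enzyme, had 0.06 ± 0.10. APL3, a subunit of the enzyme that commits glucose to starch and a sugar-induced gene, had 0.66 ± 0.15 (adjusted p = 0.169) against 1.94 ± 0.29 in WT. Its levels in tor were 6.69, 5.95 and 5.38 without glucose and 6.98, 6.5 and 6.51 with it, and those without glucose lay above all 3 such WT arrays, of which the mean was 4.97.

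Ribosome building, a main output of TOR, had almost no response left. None of 18 ribosome biogenesis genes passed in tor. Higher levels with an unadjusted p under 0.05 were found for 3 (16.7%, against 5.79% of all probe sets) and lower levels for 0 (against 5.1%). The median change was 0.08 ± 0.10 against 1.48 ± 0.22 in WT, where all 18 rose (17.3% of all probe sets did). The difference was called for all 18, against 20% of all probe sets. AT3G15460 of this list had levels of 7.02, 6.63 and 6.68 without glucose and of 7.27, 7.26 and 6.9 with it, a change of 0.37 ± 0.11 (limma adjusted p = 0.27) against 3.57 ± 0.20 in WT. AT2G40360 had 0.28 ± 0.09 against 1.47 ± 0.12. NRPA1, of the polymerase that makes ribosomal RNA, had 0.22 ± 0.09 against 2.03 ± 0.18.

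Cytosolic ribosomal proteins, the structural parts of the ribosome, had median changes in tor no larger than their SD over pairs. None of 39 probe sets of the small subunit or 77 of the large subunit passed in tor. The medians were 0.07 ± 0.11 and 0.10 ± 0.12, against 0.77 ± 0.22 and 0.76 ± 0.16 in WT, where 28 and 54 rose (17.3% of all probe sets did). Levels were higher in all 3 tor pairs for 11 of the 39 (28.2%) and 33 of the 77 (42.9%), against 17.8% of all probe sets. They were lower in all 3 for 2 (5.13%) and 2 (2.6%), against 14.3%. Among probe sets of any function with a WT change from 0.5 to 1, 36.4% were higher in all 3 tor pairs, with a tor median of 0.09. The largest of the pair medians was that of pair 3, 0.19 and 0.24, while pair 1 gave -0.01 and 0.01. AT4G30800 of the small subunit had 0.38 ± 0.12, and AT4G10450 and AT5G02870 of the large subunit had 0.32 ± 0.10 and 0.28 ± 0.09.

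**Figure D4:**
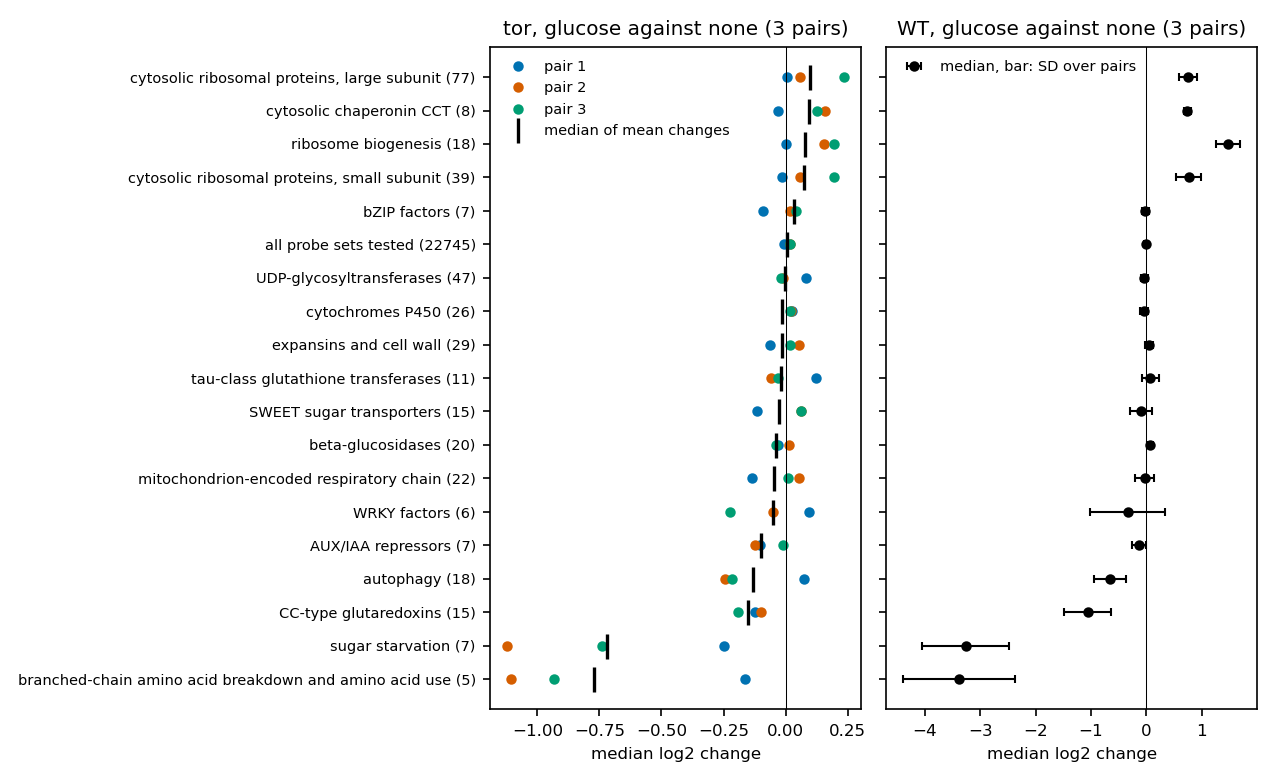
Median log2 change for glucose against none of each gene list with at least 5 probe sets (number in brackets), in tor (left, points for the 3 pairs and a black bar for the median of the mean changes) and in WT (right, median with the SD over 3 pairs); the axes have different ranges. Sugar starvation and branched-chain amino acid breakdown lie lowest in tor at -0.72 and -0.77, and the 4 lists at the top, with medians from 0.07 to 0.10, are those of ribosomes and the chaperonin.

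The cytosolic chaperonin CCT, which folds actin and tubulin, had a tor median of 0.10 ± 0.10 over 8 probe sets. All 8 rose in WT (median 0.74 ± 0.06), against 17.3% of all probe sets. The difference was called for all 8, against 20% of all probe sets. AT3G02530 of this list had 0.18 ± 0.09 in tor and 1.23 ± 0.13 in WT. DNA replication was measured by 2 genes that rose in WT and did not pass in tor. PRL (MCM7), part of the helicase that unwinds DNA at replication forks, had 0.21 ± 0.09 against 2.41 ± 0.24, and ICU2, the DNA polymerase alpha that primes new strands, had 0.04 ± 0.11 against 2.42 ± 0.24. The mitotic Aurora kinases AUR2, AUR3 and AUR1 had -0.34 ± 0.09, -0.21 ± 0.10 and -0.11 ± 0.10 in tor against -0.60 ± 0.18, -0.28 ± 0.13 and 0.34 ± 0.13 in WT, and none passed in either. For AUR2 the authors' deposited table gives a dChip log2 change in tor of 0.3, the opposite sign.

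None of 4 probe sets for small heat-shock proteins, which protect unfolded proteins, passed in tor, while 3 rose in WT (17.3% of all probe sets did). AT1G53540 stood at 4.05, 4.69 and 4.29 without glucose and at 3.88, 4.49 and 4.30 with it, a change of -0.12 ± 0.09 against 4.48 ± 0.48 in WT. AT2G29500 had 0.13 ± 0.11 against 4.38 ± 0.38. On every tor array both lay below the log2 level of 6, under which probe sets were taken as dim. The list's median over 4 probe sets was -0.02 ± 0.09 against 3.01 ± 1.23.

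Genes of primary and secondary metabolism had small changes in tor. SDH1-1, a succinate dehydrogenase subunit, had 0.22 ± 0.09 in tor against 1.12 ± 0.12 in WT, and the glycolytic genes GAPC2 and TPI had 0.10 ± 0.09 and 0.04 ± 0.09, where WT did not pass either. AT1G06000 of the flavonoid list had 0.29 ± 0.11 against 3.84 ± 0.56, UGT78D1, a flavonol glycosyltransferase, had 0.17 ± 0.10 against 2.69 ± 0.35, and DFR, dihydroflavonol reductase, had 0.03 ± 0.12. For glucosinolates, the defence compounds of the cabbage family, BCAT4 and UGT74B1 had 0.30 ± 0.09 and 0.28 ± 0.11 against 1.31 ± 0.15 and 1.22 ± 0.14. The differences from WT were called for SDH1-1, AT1G06000, UGT78D1, BCAT4 and UGT74B1.

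Some genes kept most of the WT change in size without passing in tor. AT4G39675 had levels of 5.79, 7.95 and 8.17 without glucose and of 4.82, 5.28 and 4.98 with it. Its change of -2.27 ± 0.36 (limma adjusted p = 0.0946) was 93.1% of that in WT, with a difference of 0.17 and an unadjusted 95% interval from -1.62 to 1.96. In WT without glucose AT4G39675 stood far higher, at 11.25 ± 0.52. AT2G25450 had -1.10 ± 0.16 (83.3% of WT), AT2G37750 -1.12 ± 0.19 (74.3%), and UPB1, a transcription factor of the root's transition from division to elongation, -1.20 ± 0.20 (51.0%).

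On the rising side, EXPA9, an expansin that loosens cell walls, had levels of 8.70, 6.82 and 7.28 without glucose and of 9.15, 8.09 and 8.60 with it. Its change of 1.02 ± 0.17 (adjusted p = 0.105) compared with 0.90 ± 0.14 in WT, and the difference of 0.12 had an unadjusted 95% interval from -0.47 to 0.71. UGT72E2, a glucosyltransferase of monolignols, had 0.99 ± 0.15 (adjusted p = 0.0926) against 1.49 ± 0.25, with no overlap between its tor groups. AT5G60520 had 1.19 ± 0.19 (adjusted p = 0.0946) against 1.94 ± 0.13. Neither difference passed. AT1G73620 had 0.98 ± 0.14 (adjusted p = 0.0761) against 2.38 ± 0.20, a called difference.

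Among genes with large falls in WT, AT1G19530 had a tor change of -1.81 ± 0.31 (adjusted p = 0.106) against -6.30 ± 0.48. AT3G62950 had -1.49 ± 0.34 against -5.23 ± 0.20, and AT2G20670 had -1.29 ± 0.29 against -3.42 ± 0.34. All 3 were also among the 10 lowest tor changes by which genes were named, so they do not stand for all large WT falls. All 3 differences were called. AT3G62950 belongs to the CC-type glutaredoxins, small redox proteins of land plants. None of 15 glutaredoxin probe sets passed in tor, 7 (46.7%) had an unadjusted p under 0.05 with lower levels and 1 (6.67%) with a higher level, against 5.1% and 5.79% of all probe sets. The median was -0.15 ± 0.05 against -1.06 ± 0.42 in WT, and it was -0.31 without dim probe sets and -0.09 without pair 3. AT4G15700 had -0.40 ± 0.11 and AT5G18600 had -0.31 ± 0.10, the latter with a called difference from WT (-2.28 ± 0.46).

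Transport, wall and glycosyltransferase genes were described as further lists, and none of their probe sets passed in tor. Of 15 probe sets matched by the symbol SWEET, for the SWEET sugar transporters, 3 (20%) had an unadjusted p under 0.05 with lower levels. With higher levels 0 did, and the shares of all probe sets were 5.1% and 5.79%. The match also took in SWEETIE, which is not a SWEET transporter. The median over the 15 was -0.03 ± 0.10. SWEET16 had -0.69 ± 0.14, SWEET2 -0.59 ± 0.18 and SWEET10 -0.45 ± 0.09, against -1.13, -2.10 and -0.26 in WT. Of 29 expansin and cell wall probe sets, 4 had an unadjusted p under 0.05 with higher levels and 3 with lower, among them EXPB1 with 0.54 ± 0.12 and EXLB1 with -0.59 ± 0.13. Of 47 UDP-glycosyltransferases the numbers were 7 and 5, with UGT71C1 at 0.53 ± 0.12 and UGT73B1 at -0.45 ± 0.09. These shares, 13.8% and 10.3% for walls and 14.9% and 10.6% for glycosyltransferases, compare with 5.79% and 5.1% of all probe sets.

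A small set of genes had higher levels with glucose in tor and little change in WT. Of the 4555 probe sets (20%) with a called difference between genotypes, 25 had a larger change in tor than in WT, 18 of them toward higher levels, and none of these passed in tor alone. BGLU27, a beta-glucosidase, had levels of 4.38, 7.30 and 7.36 without glucose and of 5.77, 8.51 and 7.89 with it. Its change in tor was 1.05 ± 0.16 (limma adjusted p = 0.0946) against 0.09 ± 0.11 in WT, a difference of 0.96 ± 0.22 that passed (adjusted p = 0.0198). AT2G23270 had 1.15 ± 0.26 against -0.21 ± 0.11, and AT1G26420 had 1.05 ± 0.25 against -0.23 ± 0.16, both called differences (adjusted p = 0.0316 and 0.0425). For AT2G23270 the authors' deposited table gives a dChip log2 change in tor of 0.3.

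AT1G26380 and AT1G26410 lie in the same run of 5 consecutive loci as AT1G26420 and had changes of 1.17 ± 0.36 and 0.94 ± 0.23 in tor, with 0.00 and -0.07 in WT and differences that did not pass (adjusted p = 0.147 and 0.0604). AT1G26380 stood at 4.04 ± 0.20 without and 4.04 ± 0.28 with glucose in WT, and higher in tor already without glucose, at 6.26, 9.57 and 10.31. For AT1G26420 that did not hold in replicate 1, where tor without glucose stood at 3.73 against 3.99 on WT array 2. Pair 1, which started lowest, gave the largest changes, 2.39 for AT1G26380 against 1.05 and 0.08, and 2.00 for AT2G23270 against 1.09 and 0.35.

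**Figure D5:**
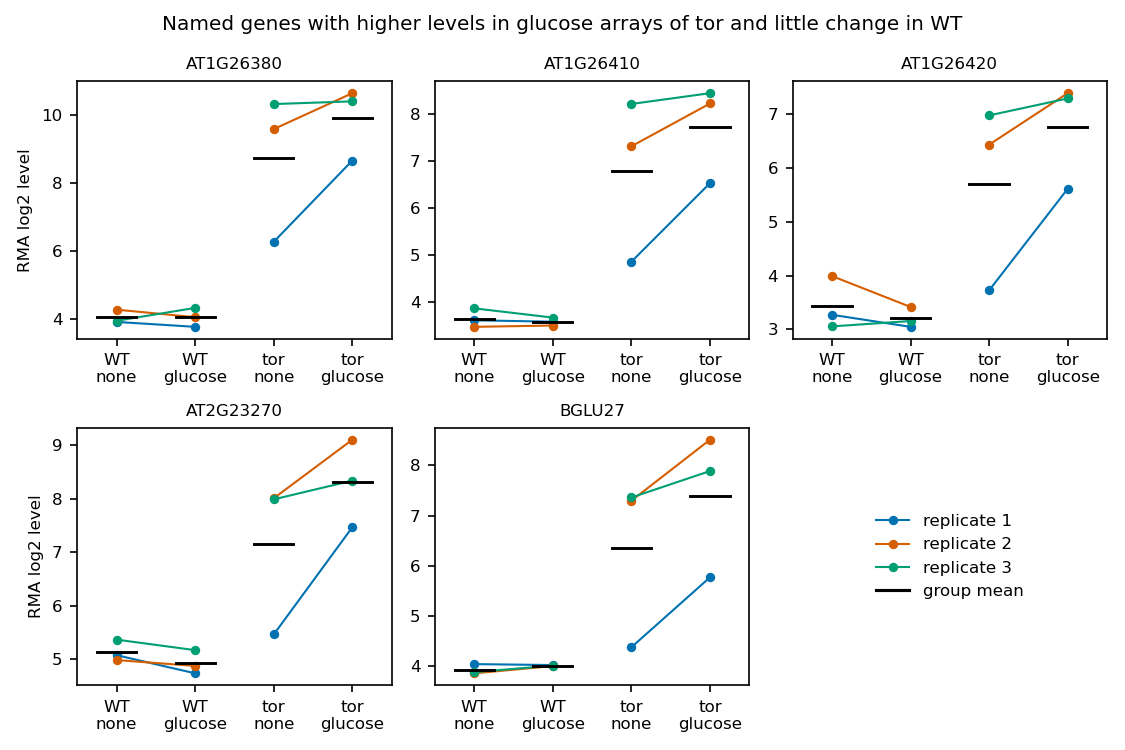
RMA log2 level (y axis, a range of its own in each panel) of 5 genes on each array by group, with a line joining arrays of the same replicate number and a black bar for the group mean. The group means of tor lie above those of WT in each panel, and replicate 1 has the largest change in tor, for BGLU27 from 4.38 to 5.77; its AT1G26420 level without glucose, 3.73, lies below that of WT replicate 2, 3.99.

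Genes used as references for handling and for other sources of variation had small changes in tor. The stress-responsive zinc finger gene STZ had -0.15 ± 0.11 and tny 0.10 ± 0.09, the clock gene GI -0.16 ± 0.10, and the light-harvesting gene LHCB4.1 0.06 ± 0.09. The reference genes AT2G28390, AT4G34270 and PEX4 had 0.19 ± 0.09, 0.01 ± 0.10 and -0.06 ± 0.09. None of these passed in tor. Their changes by pair stayed between -0.41 (STZ, pair 3) and 0.24 (AT2G28390, pair 2), and their part in the results above was not tested. STZ was not steady in WT, where it fell by -1.28 ± 0.36 (limma adjusted p = 0.0453). For tny the tor level without glucose was 5.23, under the level of 6 taken as dim, against 8.80 in WT, so its small change in tor says little.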

How the data were processed

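Whole-seedling RNA of 3 tor arrays with glucose, 3 tor arrays without it and the 6 matching WT arrays was compared. The deposited values are log2 levels per probe set that the authors summarised with RMA, per the submitters' processing notes (version not given). The authors also deposited, per the file headers, log2 fold changes from dChip and RMA with a p-value each. Their RMA fold lay within 0.05 of the difference computed here for all 22745 probe sets.

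Each genotype was fitted with limma 3.58.1 in R 4.3.3 (lmFit, eBayes) with the replicate number as a block, tests were two-sided, and p-values were adjusted by Benjamini-Hochberg over all probe sets. A call is an adjusted p under 0.05. The tor minus WT difference was fitted on all 12 arrays with blocks within genotype. The pairing comes from the replicate numbers in the labels. Deviations from the group means of same-numbered arrays correlated at 0.678 to 0.863 in tor and 0.314 to 0.396 in WT, while those of different-numbered tor arrays correlated at -0.702 to 0.197. Deviations cancel out within each group, so the low values for different numbers partly follow from the high ones and add no separate support. P-values and gene errors rest on the spread among the arrays, which eBayes moderates with the spread of all probe sets. They are therefore not the spread of a gene's own pairs alone, and 3 arrays per group limit the precision. Errors of genes are limma standard errors, those of list medians the SD over pairs. The fit was tested on simulated data.

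Of 22746 probe sets, 13513 carry 1 gene (13436 of them found in RefSeq, TAIR10.1, by gene ID), 503 carry several and 8730 none. Genes named are all called ones, the 10 highest and 10 lowest tor changes with a mean level of at least 6 and 1 direction in all pairs, up to 3 members of each list by p, the 6 highest and 6 lowest WT changes and the 5 highest and 5 lowest differences. From 114 probe sets allowed by that rule, 77 are named. Values are also given outside the rule for AT1G26390, AT1G26400 and the other probe set of AT2G37840. A locus without a symbol gets no role beyond the name of its list, except AT3G13610 (F6'H1). Members, lists and tests were chosen with earlier results of these data known. The lists of cytosolic ribosomal proteins, the chaperonin, small heat-shock proteins and symbol families such as SWEET were added after the files were read. Lists for seed storage, translation factors, the proteasome and trehalose had no measured member. No list was tested. No sequences are shown.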

Additional observations from a re-analysis of the deposited data

Results flagged for a closer look

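By the test of the difference itself, 4555 probe sets responded to glucose differently in tor and WT (limma, paired within genotype, adjusted p under 0.05), and the named genes among them are listed here with tor minus WT log2 differences. No explanation was weighed.

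Among genes that fell in WT the difference was positive, since the tor change was smaller. It was 2.42 for GAT1_2.1, 2.33 for AT3G20340, 1.82 for AT1G68440, 4.48 for AT1G19530, 3.74 for AT3G62950 and 2.13 for AT2G20670. For starvation and amino acid breakdown it was 4.09 for PPDK, 3.43 for AT4G27450, 4.50 for MCCA, 2.52 for MCCB, 2.85 for IVD and 2.43 for ETFQO. For autophagy and oil breakdown it was 1.99 for ATG8E, 1.29 for ICL and 1.46 for SDP1. For transport, walls, glycosylation and glutaredoxins it was 1.52 for SWEET2, 1.18 for EXLB1, 1.28 for UGT73B1 and 1.98 for AT5G18600.

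Among genes that rose in WT the difference was negative. It was -4.60 for AT1G53540 and -4.25 for AT2G29500 of the small heat-shock proteins, and -3.2 for AT3G15460, -1.19 for AT2G40360 and -1.82 for NRPA1 of ribosome building. It was -2.10 for AT4G30800, -1.28 for AT4G10450 and -0.94 for AT5G02870 of the ribosomal proteins, -1.05 for AT3G02530 of the chaperonin, and -2.38 for ICU2 and -2.21 for PRL of DNA replication. In metabolism it was -3.55 for AT1G06000, -2.52 for UGT78D1, -1.01 for BCAT4, -0.95 for UGT74B1, -0.90 for SDH1-1 and -1.28 for APL3. It was -1.10 for EXPB1, -0.84 for UGT71C1, -1.40 for AT1G73620 and -1.30 for AT5G10130.

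Of the probe sets not called in WT, it was 0.96 for BGLU27, 1.36 for AT2G23270, 1.29 for AT1G26420 and 0.85 for 1 of the 2 probe sets of AT2G37840. The other probe set of AT2G37840 fell in WT, by a log2 change of -0.67, and its difference was not called.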

How the results depend on the processing

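The 20 calls in tor became 0 without the replicate block, 0 with all 12 arrays and a block within genotype (1326 at an unadjusted p under 0.05), 0 with all 12 arrays and no block (313 at an unadjusted p under 0.05), 40 with arrays centred on their medians and 162 with trend and robust variance, of which 20 and 19 were among the 20. Leaving out 1 pair gave 2 to 489. The difference between genotypes (4555) gave 1220 calls without the replicate block and 174 to 5236 without 1 pair, and its split of 1866 higher and 2689 lower became 2440 and 2174 after centring, which shifts the median difference from 0.01 to 0.07. The WT count (6907) gave 2457 to 8111 without 1 pair. Its 3942 higher and 2965 lower became 3254 and 3817 after centring. Without the block all 7 named calls in tor were lost, as were 7 without pair 2 and 4 without pair 3. The cause was not tested. Of 77 named log2 changes in tor, directions turned under scaling or leaving out a pair only for values near 0: AT4G34270 to -0.0118 after centring, and DFR to -0.0179 and RAPTOR1 to 0.0137 after quantile normalization. Without 1 pair the range was -0.00057 to 0.239 for AT2G29500, -0.0396 to 0.142 for AIM1, -0.0110 to 0.0882 for TPI, -0.0696 to 0.179 for ICU2, -0.0707 to 0.185 for DFR, -0.0516 to 0.0955 for AT4G34270 and -0.0551 to 0.0227 for RAPTOR1. The glutaredoxin median was -0.22 and -0.09 without pair 2 and pair 3 and -0.31 without dim probe sets. The authors' deposited dChip changes in tor counted as moved from the values here for 15 of the 77 and as the same for 62. They were -6.3 for the second GAT1_2.1 probe set and, with the sign turned, 0.3 for AUR2 (-0.34 here) and 0.3 for AT1G53540 (-0.12 here). Among the named calls they were -0.9 for AT3G15440 (-1.48 here) and 1.5 for AT5G10130 (1.03 here). The smallest called change was 0.79 at a median SE of 0.10, so smaller changes were mostly not detectable with 3 pairs.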

Other observations

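The run of 5 consecutive loci from AT1G26380 to AT1G26420 was singled out after its values were seen. All 5 loci have a probe set and all 5 had higher levels with glucose in all 3 tor pairs, against 17.8% of all probe sets. None of the 5 passed in tor. AT1G26390 had a change of 0.63 ± 0.18 (SE) and AT1G26400 of 0.45 ± 0.11, against -0.07 and -0.11 in WT. The difference was called for AT1G26400 and AT1G26420 (limma adjusted p = 0.0438 and 0.0425), against 20% of all probe sets. The 5 neighbours span mean tor levels from 4.06 (AT1G26400), under the level of 6 taken as dim, to 9.30 (AT1G26380). How far their probes share signal was not tested.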
